A study of Rattus norvegicus with 2 samples.

Results

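Lysosomal genes of the rat basilar artery were described across the ligated and the sham-operated condition. The list held 51 genes for lysosomal enzymes, their activators, membrane proteins, subunits of the proton pump and a transcription factor of the pathway. A member was measured where a probe set carried its symbol as the only gene symbol in the platform annotation. This gave 47 members, each with 1 probe set, among 15037 named genes. Ctso, Naglu, Sgsh and Ids had no named probe set in the annotation used here and were not analysed.

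RNA was measured on 2 Clariom S rat arrays. The ligation array held basilar arteries of rats in which both common carotid arteries had been tied, and the sham array held those of rats in which these arteries were only exposed. In both groups the animals were male Sprague-Dawley rats of 13 months, the artery was taken 4 weeks after surgery, and equal amounts of RNA from 4 rats were pooled before 50 ng was labeled. Each group is therefore a single measurement, without SD, test or p-value, and every difference below lies between 2 pools and has no replicate check.

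Lysosomes are acidic organelles that break down proteins, glycans and lipids. A proton pump in their membrane, the V-ATPase, keeps the lumen acidic, which most of the hydrolases need, and membrane glycoproteins such as LAMP1 and LAMP2 line the limiting membrane. Most hydrolases are sorted to lysosomes by mannose 6-phosphate receptors. The transcription factor TFEB binds a palindromic element in the promoters of many lysosomal genes. In arteries, several cathepsins can also act outside the cell, where they cleave elastin and collagen, and macrophages are rich in lysosomes.

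Most lysosomal genes had a modestly higher signal after ligation, and none was much lower. Of the 47 measured members, 41 (87.2%) had a higher signal on the ligation array and 6 had a lower one, where 48.7% of all named genes were higher. The median difference in log2 signal, ligation minus sham, was 0.49, which is 1.40-fold, against -0.01 over all named genes. Over 2-fold higher were 4 members (8.51%), and of all named genes 4.04% were. None of the members was under 0.5-fold, where 2.97% of all named genes lay. Over 1.5-fold higher were 20 members (42.6%), against 12.4% of all named genes. None was over 1.5-fold lower, against 10.8%. The members were chosen with earlier results of these data known, so these shares are not independent of that choice. Of 103 other lysosome genes measured outside the list, 77 (74.8%) were above 0, with a median of 0.29. The 4 members over 2-fold were all soluble enzymes, Ctsh, Ctsl, Ctss and Man2b1. Enzymes and activators of the lumen made up 32 of the 47 measured members, so this says little about role. Outside the list the membrane protein Ctns was 3.22-fold higher. The medians of the membrane proteins and of the proton pump among the members stood closer to 0.

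To set the members against genes of similar signal, each was also set beside the 200 named genes outside the list with the nearest mean log2 signal. Among these neighbors 5.56% were over 2-fold higher, 4.88% were under 0.5-fold and 19.2% were over 1.5-fold higher. The neighbor median lay between -0.02 and 0.20 for all members, and 41 of the 47 members were above their own. The median of member minus neighbor median was 0.41 on the log2 scale. Across the 47 members, which share both arrays, the difference and the mean log2 signal had a Pearson coefficient of 0.23 and a Spearman coefficient of 0.22.

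**Figure D1:**
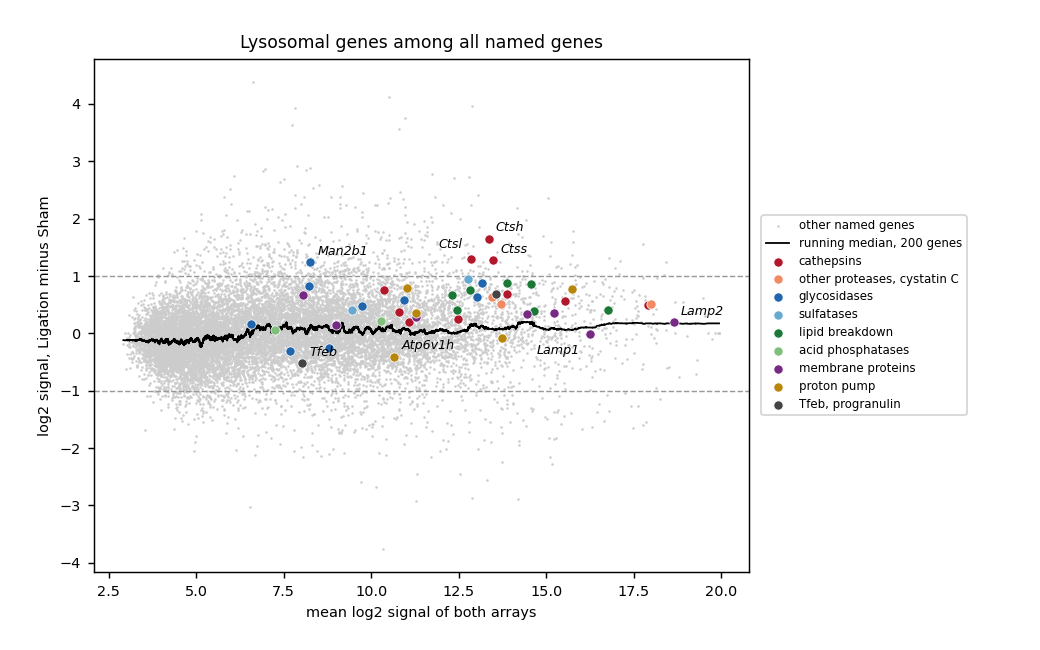
Difference in log2 signal (ligation minus sham, vertical axis) against the mean log2 signal of both arrays (horizontal axis) for all named genes in grey and the measured lysosomal genes in color by role. The line is the running median of 200 genes, dashed lines mark 2-fold, and 41 of the 47 lysosomal genes lie above 0.

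The arrays as a whole were alike, with a Pearson coefficient of 0.984 between the log2 signals of 23188 gene probe sets. The highest signals were 999963 on the ligation array and 998298 on the sham array, and no member reached them. Whether bright signals below these values were compressed was not tested. Background was taken from 23 antigenomic probe sets, whose sequences occur in no rat transcript by design and which reached up to 157 on the ligation array and 151 on the sham array. Of the 47 members, 45 were brighter than this on both arrays. Neu1 and Acp5 were within it on both arrays, so no fold is given for them.

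Markers of the cell types in and around the artery also differed between the arrays. All 21 macrophage and microglia markers were above 0, 8 of them (38.1%) over 2-fold. Of all named genes 48.7% were above 0 and 4.04% over 2-fold. The median difference of these markers was 0.90, with a summed signal of 722324 on the ligation array and 463184 on the sham array. Most of both sums came from Lyz2, with 589994 after ligation and 405198 after sham surgery, which is 1.46-fold. Of 11 measured endothelial markers all were above 0, with a median of 1.24 and summed signals of 193128 after ligation and 103607 after sham surgery. Astrocyte markers had a median of 1.23 over 9 genes (sums of 326761 and 205429 in the ligation and the sham array). Most of these sums came from Gjb6, with 234092 after ligation and 159202 after sham surgery, while the astrocyte filament gene Gfap was 15.6-fold and the water channel gene Aqp4 17.3-fold higher. Oligodendrocyte and Schwann cell markers had a median of 1.35 over 10 genes (sums of 227082 and 104843 in the ligation and the sham array). Here Pmp22 made up most of the sums, with 189643 after ligation and 85563 after sham surgery, while the myelin genes Mbp and Mobp were 13.6-fold and 11.9-fold higher. These single markers are named after their values were seen. Fibroblast and leptomeningeal markers had a median of 0.53 over 11 genes, with sums of 2366891 after ligation and 1860566 after sham surgery. The largest part of both sums came from Ptgds, with 995512 after ligation and 993855 after sham surgery, close to the highest signals of the arrays. Of the 11 genes 10 were above 0, and Dpep1, within background on both arrays, had -1.08. Ptgds and Dpep1 are named after their values were seen. Neuron markers had a median of 0.00 over 10 genes, 5 of them within background on both arrays. All 11 smooth muscle markers, which define the wall of this artery, were lower, with a median of -1.05 and sums of 2344162 on the ligation array and 3574220 on the sham array. Of the macrophage and microglia markers, 12 (57.1%) were over 1.5-fold higher, against 12.4% of all named genes, and 9 were not. The lowest, Trem2, was close to 0 with a difference of 0.04. Its signals of 162 after ligation and 157 after sham surgery were barely above background. Only Cd163 among these markers was within background on both arrays. Trem2 and Cd163 are named after their values were seen. The part of these cells in the lysosomal signals was not tested, and in whole tissue more or fewer cells of a type cannot be told apart from more or less RNA per cell.

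Cathepsins, the proteases of the lysosome, had the highest differences of single members. All 10 measured cathepsins had a higher signal after ligation, against 48.7% of all named genes, and their median difference was 0.62. Over 2-fold were 3 (30%), against 4.04% of all named genes and 5.56% of the neighbors in signal. Ctsh, an aminopeptidase of the cysteine cathepsin family, had a signal of 18462 on the ligation array and 5880.5 on the sham array. This is 3.14-fold, a difference of 1.65 on the log2 scale, and no other member differed as much. Ctsl, a cysteine endopeptidase found in most cells, had 11577 after ligation and 4711 after sham surgery, which is 2.46-fold. Ctss, a cysteine cathepsin of macrophages and other antigen-presenting cells that stays active at neutral pH, had 17882 after ligation and 7377 after sham surgery, which is 2.42-fold. Each of these 3 genes exceeded its neighbor median by at least 1.17.

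The other cathepsins differed by less than 2-fold. Ctsk, a collagenase best known from bone-resorbing cells, had 1693 on the ligation array and 1006 on the sham array, a difference of 0.75. Ctsd, the main aspartic protease of lysosomes, had 18946 after ligation and 11844 after sham surgery, a difference of 0.68. Ctsa, a serine carboxypeptidase that also protects β-galactosidase and neuraminidase, had a difference of 0.57. Ctsb, a cysteine protease of most cell types, had 287534 and 205103 in the ligation and the sham array, a difference of 0.49. Ctsz (0.38), Ctsc (0.25), the dipeptidyl peptidase that activates serine proteases of leukocytes, and Ctsf (0.21) were nearest to 0. The cathepsins thus reached from 0.21 to 1.65 among themselves.

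Beside the cathepsins stood further genes of proteolysis. Lgmn, the asparaginyl endopeptidase that processes cathepsins, had 13937 after ligation and 8953 after sham surgery, a difference of 0.64. Tpp1, a tripeptidyl peptidase, had a difference of 0.51. Cst3 encodes cystatin C, a secreted inhibitor of cysteine cathepsins, and had 307884 after ligation and 216441 after sham surgery, likewise a difference of 0.51. The inhibitor thus differed in the same direction as the enzymes, by less than Ctsh, Ctsl and Ctss and by about as much as Ctsb. Among 4 other cystatins, which were fixed as a list apart, only Cstb was above background on both arrays, with 15054 on the ligation array and 7576 on the sham array and a difference of 0.99. Cstb encodes cystatin B, an inhibitor inside the cell, and is named here after its value was seen.

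**Figure D2:**
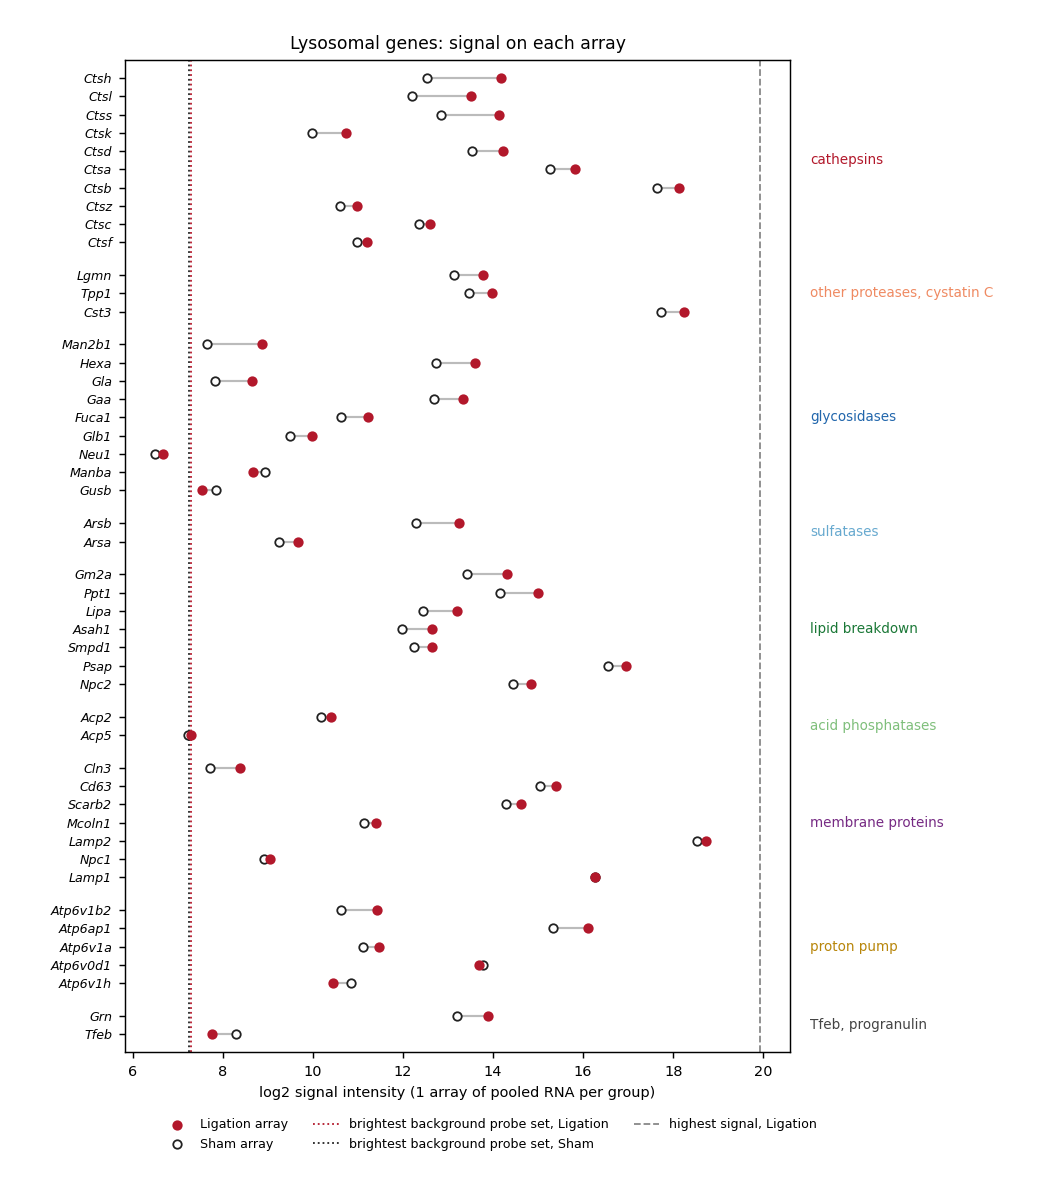
Log2 signal intensity of the 47 measured lysosomal genes by role, with the ligation array as filled and the sham array as open circles, 1 array of pooled RNA each. Dotted lines mark the brightest background probe set and the dashed line the highest signal of the ligation array. Only Neu1 and Acp5 lie at or below background, and Ctsh, Ctsl, Ctss and Man2b1 have the widest gaps toward higher ligation signals.

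Glycosidases, which remove sugars from glycoproteins and glycolipids, lay on both sides of 0. Of 9 measured, 7 were above 0, against 48.7% of all named genes, and 2 were below, with a median of 0.59. Man2b1, the lysosomal α-mannosidase, had 469.9 on the ligation array and 199 on the sham array, which is 2.36-fold. Its sham signal was not far above the background of 151. Hexa, the α subunit of β-hexosaminidase, had 12449 after ligation and 6787 after sham surgery, a difference of 0.88. Gla, the α-galactosidase, had 401 and 225 in the ligation and the sham array, a difference of 0.83. Gaa, the α-glucosidase that breaks down glycogen, had 0.64, the fucosidase Fuca1 had 0.59 and the β-galactosidase Glb1 had 0.48. On the other side were the β-mannosidase Manba, with 406 after ligation and 487 after sham surgery, and the β-glucuronidase Gusb, with 184 and 228. Their differences were -0.26 and -0.31, and both were below their neighbor medians. The neuraminidase Neu1 had 101 after ligation and 89.9 after sham surgery, both within background.

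Among the sulfatases, Arsb, which acts on dermatan sulfate, had 9613 on the ligation array and 4962 on the sham array. This is 1.94-fold and the largest difference of a member short of 2-fold. Arsa, which acts on sulfatide, had 810.3 and 609.6 in the ligation and the sham array, a difference of 0.41.

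Genes of lipid breakdown lay close together. All 7 were above 0, against 48.7% of all named genes, from 0.40 to 0.88, with a median of 0.68. Gm2a, the activator that presents ganglioside to β-hexosaminidase, had 20177 after ligation and 10969 after sham surgery, a difference of 0.88. This was close to the 0.88 of Hexa, its partner enzyme. Ppt1, a thioesterase that removes palmitate from proteins, had 32699 and 18086 in the ligation and the sham array (0.85). Lipa, the acid lipase that frees cholesterol from its esters, had 9359 after ligation and 5562 after sham surgery (0.75). The ceramidase Asah1 had 0.68, the sphingomyelinase Smpd1 had 0.41 and Psap, the precursor of the saposins, had 0.40. Npc2, which binds cholesterol in the lumen, had 29274 after ligation and 22225 after sham surgery, a difference of 0.40. The acid phosphatase Acp2 had a difference of 0.22, and Acp5, an acid phosphatase of osteoclasts and macrophages, was within background with 156 on the ligation array and 150.0 on the sham array.

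**Figure D3:**
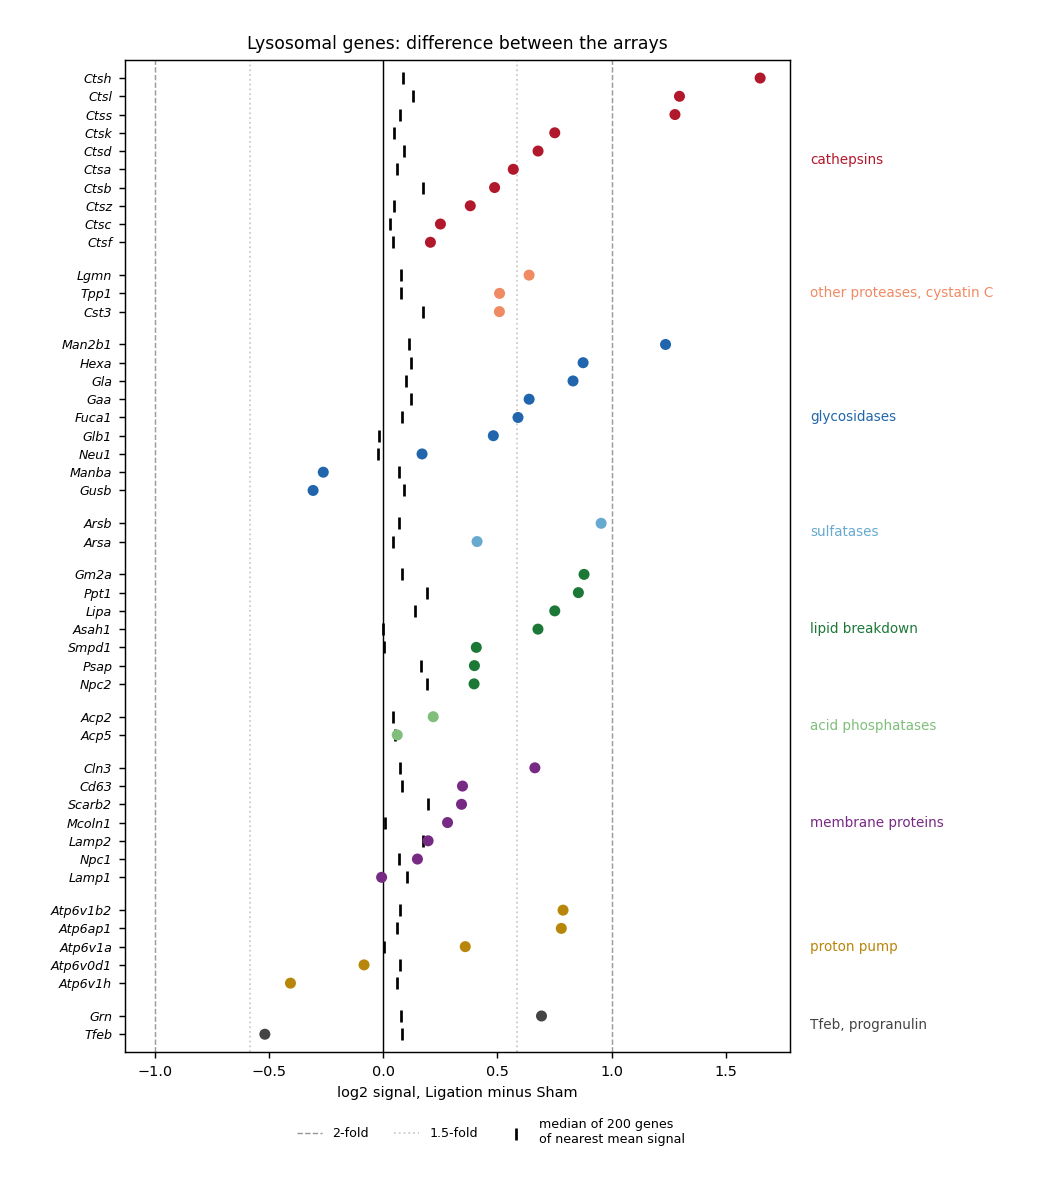
Difference in log2 signal (ligation minus sham) of each measured lysosomal gene, grouped by role and colored by group, with a tick at the median of its 200 neighbors in mean signal. Dashed lines mark 2-fold and dotted lines 1.5-fold. Enzymes lie mostly right of their ticks, while Lamp1, Atp6v0d1, Atp6v1h, Gusb, Manba and Tfeb lie left of theirs.

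Membrane proteins had lower differences than most enzymes. Of the 7, 6 were above 0, none passed 2-fold and their median was 0.28. Of all named genes 48.7% were above 0 and only 4.04% over 2-fold. Lamp1, a main glycoprotein of the lysosomal membrane, had 78148 on the ligation array and 78561 on the sham array, a difference of -0.01. Lamp2, its relative with a further role in autophagy, had 436462 after ligation and 380987 after sham surgery, a difference of 0.20. Both signs depended on the scaling, with Lamp1 at 0.06 after centring on housekeeping genes and Lamp2 at -0.01 after removal of the trend on mean signal. Npc1, the cholesterol transporter that works with Npc2, had 531 and 479 in the ligation and the sham array, a difference of 0.15. Cd63, a tetraspanin of late endosomes, had 0.35, Scarb2, the receptor that carries β-glucocerebrosidase to lysosomes, had 0.34, and the calcium channel Mcoln1 had 0.28. Cln3, a membrane protein of uncertain function, had 333 after ligation and 210.4 after sham surgery, a difference of 0.66.

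Set against these, the 32 measured enzymes and activators of the lumen had a median of 0.58, with 30 above 0 and 16 (50%) over 1.5-fold higher. The 12 membrane proteins and proton pump members had a median of 0.31, with 9 above 0 and 3 (25%) over 1.5-fold higher. Above 0 were 48.7% of all named genes. Over 1.5-fold were 12.4% of all named genes and 19.2% of the neighbors in signal, and the share of the membrane and pump members lay near the second of these. Among lysosome genes outside the list, described below, 9 of 24 membrane proteins (37.5%) and 12 of 27 hydrolases (44.4%) were over 1.5-fold higher. So was 1 of 15 further V-ATPase genes (6.67%). The grouping of members into lumen genes and membrane or pump genes was made after the values were seen. With 1 array per group its difference was not tested.

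The proton pump genes were split. Atp6ap1, an accessory subunit needed for assembly, had 70816 on the ligation array and 41253 on the sham array, a difference of 0.78. Atp6v1b2, a subunit of the catalytic head, had 2724 after ligation and 1578 after sham surgery, a difference of 0.79. The catalytic subunit Atp6v1a had 2830.0 and 2207 in the ligation and the sham array (0.36). Atp6v0d1, which links the head to the membrane sector, had 13217 after ligation and 14015 after sham surgery (-0.08), and the regulatory subunit Atp6v1h had 1395 and 1849.9 (-0.41). Their median was 0.36. A list of 15 other V-ATPase genes had a median of 0.32, with 12 above 0 and none past 2-fold in either direction. Of all named genes 48.7% were above 0, 4.04% over 2-fold and 2.97% under 0.5-fold. Only 1 of them (6.67%) was over 1.5-fold higher, below the 12.4% of all named genes. Over all 20 pump genes the differences reached from -0.41 to 0.79.

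Tfeb itself, the transcription factor, had a signal of 217 on the ligation array and 310.3 on the sham array, a difference of -0.52 and the lowest of all members. Its relative Mitf, fixed on another list, had -0.52 as well, and Tfe3 had -0.06; both are named after their values were seen. Grn, which encodes the lysosomal protein progranulin, had 15236 after ligation and 9426 after sham surgery, a difference of 0.69.

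The element that TFEB binds was looked for in promoter windows of RefSeq genes (assembly GRCr8), which run from 250 bases before the transcription start to 50 after it. Windows were matched by symbol for 42 of the 51 members. TCACGTGA, the core of the element, was found in 5 of them (11.9%), against 0.896% of all 27457 genes with a window. Its inner part CACGTG was found in 10 (23.8%), against 7.08% of all genes. Both words read the same on either strand, and TCACGTGA contains CACGTG. The element was first defined on lysosomal promoters, so this share is not independent of the choice of genes. The sites upstream of the start in Cln3, Ctsd and Atp6v0d1 are shown with TCACGTGA in capitals, because their genes differed so unequally between the arrays (0.66, 0.68 and -0.08).
Cln3, chr1:190597950-190597979, minus strand: cacgggtactgTCACGTGAtccccaacctg
Ctsd, chr1:206968822-206968851, minus strand: tccgcccctcgcccgcgtcTCACGTGAccc
Atp6v0d1, chr19:50357283-50357312, minus strand: ccccattgtggTCACGTGAgatgcagtgcg

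Lamp1 held CACGTG at 5 places in its window, the most of any member, and its signal was nearly the same on both arrays. Its upstream stretch is shown with CACGTG in capitals.
Lamp1, chr16:83075064-83075263, minus strand: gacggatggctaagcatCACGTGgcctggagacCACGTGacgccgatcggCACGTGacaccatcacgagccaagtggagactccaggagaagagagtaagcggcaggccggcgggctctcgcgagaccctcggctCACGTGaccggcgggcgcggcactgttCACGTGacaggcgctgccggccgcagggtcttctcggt

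None of the 4 members over 2-fold higher held CACGTG in its window, where 23.8% of the 42 members with a window and 7.08% of all genes did. At these shares a lack of overlap among 4 genes says little. The 9 measured members with CACGTG had a median difference of 0.35, from -0.08 for Atp6v0d1 to 0.68 for Ctsd, and the 29 measured members without it had a median of 0.51. Among those with it were the membrane and pump genes Lamp1, Cd63, Mcoln1, Cln3 and Atp6v0d1, whose groups had medians of 0.28 and 0.36. Role and element are thus mixed in these 2 medians, and their difference was not tested. A match in a window is no evidence of binding, and the lack of one says only that these letters are absent there. The upstream bases of Ctsh and Ctss are shown as those of the highest cathepsin and of the cathepsin typical of macrophages, in lower case throughout since neither holds the element.
Ctsh, chr8:99488656-99488755, plus strand: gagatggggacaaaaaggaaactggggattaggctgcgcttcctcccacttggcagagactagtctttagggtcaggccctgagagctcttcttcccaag
Ctss, chr2:185775296-185775395, plus strand: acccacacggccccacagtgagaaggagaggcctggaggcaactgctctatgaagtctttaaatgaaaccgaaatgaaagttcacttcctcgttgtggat

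Further lysosome genes outside the list were described in the same way. Of 27 other lysosomal hydrolases with a named probe set, 22 were above 0, where 48.7% of all named genes were. Over 2-fold were 6 (22.2%), against 4.04% of all named genes, and none lay under 0.5-fold, against 2.97%. The median was 0.54. Prcp, a carboxypeptidase that cleaves angiotensin II, had 1304 on the ligation array and 487.6 on the sham array, which is 2.67-fold. Hyal2, a hyaluronidase, was 2.50-fold higher, and the dipeptidyl peptidase Dpp7 was 2.35-fold higher. Of 24 other membrane proteins, 21 were above 0, and the median was 0.40. Over 2-fold were 2 (8.33%, against 4.04% of all named genes), namely Ctns, the cystine exporter, with 2231 after ligation and 693.9 after sham surgery, a fold of 3.22, and Lamtor1, which anchors the mTORC1 scaffold to lysosomes, with a fold of 2.44.

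Genes that deliver enzymes to lysosomes and genes of autophagy had medians near 0, and their difference from the hydrolases was not tested. The 11 sorting genes had a median of 0.07, with 8 above 0 and only the adaptor Gga2 over 2-fold (2.03-fold). Of all named genes 48.7% were above 0 and 4.04% over 2-fold. Sort1, a sorting receptor, had 8271 on the ligation array and 14831 on the sham array, a difference of -0.84. Igf2r, the large mannose 6-phosphate receptor, had 865 after ligation and 1514 after sham surgery, a difference of -0.81. The small receptor M6pr had a difference of 0.12. Sort1, Igf2r and M6pr are named after their values were seen. Over 1.5-fold higher were 2 of the 11 sorting genes (18.2%), against 12.4% of all named genes. Over 1.5-fold lower were 2 as well, Sort1 and Igf2r, against 10.8% of all named genes. Of 22 genes of autophagy and relatives of TFEB, 11 were above 0 and 11 below, with a median of 0.05. Map1lc3a, a protein of the autophagosome membrane, had 433 after ligation and 1135 after sham surgery, a difference of -1.39. It was the only gene of the 22 past 2-fold in either direction, and 2.97% of all named genes were under 0.5-fold. Over 1.5-fold higher were 2 of the 22 (9.09%), against 12.4% of all named genes, and 2 were over 1.5-fold lower, against 10.8%. The highest, Sqstm1, had a difference of 0.80 and is named after its value was seen.

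**Figure D4:**
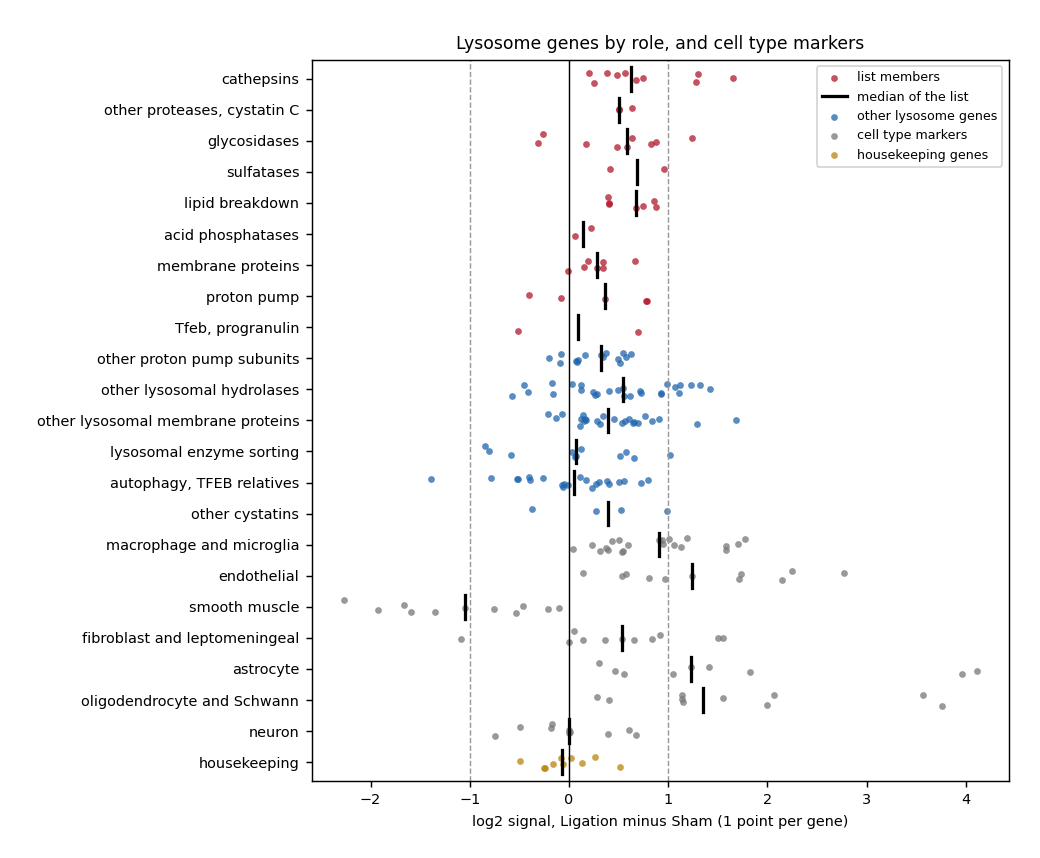
Difference in log2 signal (ligation minus sham), 1 point per gene, for lysosomal genes by role (red), other lysosome genes (blue), cell type markers (grey) and housekeeping genes (yellow), with the median of each list as a bar and dashed lines at 2-fold. Cathepsins (median 0.62) and lipid breakdown genes (0.68) lie right of membrane proteins (0.28), sorting genes (0.07) and autophagy genes (0.05), while macrophage markers (0.90) lie further right and smooth muscle markers (-1.05) to the left.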

How the data were processed

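The authors pooled RNA within each group. The deposited values are 1 linear intensity for each probe set and array, which the submitters' processing notes ascribe to RMA in Affymetrix Expression Console. Versions and genome build were not given in the sources used here. RMA fits both arrays to a common distribution, so much of a shift of all genes would be removed, and very bright signals can be compressed. The deposited values still differed somewhat in distribution, with median signals of 110 on the ligation array and 106 on the sham array. Quantile normalization of these values moved the median over the members from 0.49 to 0.38. Of 23188 gene probe sets, 15049 had 1 gene symbol in the platform annotation, all matched by Entrez identifier to the rat assembly GRCr8, and 8139 were unnamed here. Log2 of the signal was averaged over probe sets of a gene (15037 genes) and subtracted as ligation minus sham, with no floor and no further scaling. With 1 array per group no test was run. The neighbor medians, and the median of member minus neighbor median, were tested on simulated data with known shifts. The counts past thresholds were not checked in this way. Members and lists were chosen with earlier results of these data known. All members could be named, and of the other lysosome lists at most 3 genes in each direction past 2-fold and above background. Genes named outside this rule are said to be so where they appear. Only linear intensities were used, promoter sequences came from RefSeq, and having 1 array per group limits the precision of every value. Alternatives were median centring, quantile normalization, centring on housekeeping genes, removal of a lowess trend (fraction 0.3), 64 added before the log, a floor at the median brighter signal, the brightest probe set, thresholds of 1.5-fold and 3-fold, and the mean in place of the median. Values and figures were made with matplotlib 3.10.9, numpy 2.4.6, scipy 1.17.1, statsmodels 0.14.6 and pandas 2.3.3 in Python 3.11.15.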

Additional observations from a re-analysis of the deposited data

How the results depend on the processing

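The median over the members stayed above 0 under every scaling and filter tried, from 0.33 with the lowess trend removed to 0.56 with centring on 10 housekeeping genes, whose own median difference was -0.07. The ranges of the group medians, the mean in place of the median included, were 0.46 to 0.75 for cathepsins, 0.47 to 0.66 for glycosidases, 0.18 to 0.35 for membrane proteins and 0.28 to 0.43 for the proton pump. With 1 array per group there is no replicate spread to set these ranges against. The count of members over 2-fold higher was 4, or 5 with housekeeping centring, but 20 at a threshold of 1.5-fold and 1 at 3-fold. No member was under 0.5-fold at any of these settings. Acp5 changed sign under quantile normalization (-0.03), as did Lamp1 and Lamp2 in the cases given above. With 64 added to each signal, Man2b1 had a difference of 1.02 in place of 1.24. The brightest probe set changed nothing, as each member had 1. No paired analysis was possible because each group has 1 array. Signals at or not far above background, as for Neu1, Acp5, Gusb, Tfeb, Cln3 and Gla, limit what can be said of those genes. Cln3, counted above among the genes over 1.5-fold, fell below that threshold in several settings. It had 0.53 with 64 added, 0.57 under quantile normalization and 0.58 with the lowess trend removed.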

Other observations

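Members that are mutated in human storage diseases were also read across their roles, in groups chosen after the values were seen. Of the neuronal ceroid lipofuscinoses, in which lipopigment gathers in lysosomes, 6 genes are members (Ppt1, Tpp1, Cln3, Ctsd, Grn and Ctsf). All 6 had a higher signal in the ligation array, against 48.7% of all named genes, from 0.21 for Ctsf to 0.85 for Ppt1. Their median was 0.67. Over 1.5-fold were 4 (66.7%), against 12.4% of all named genes and 19.2% of the neighbors in signal. Cln3 is among these 4 and fell below 1.5-fold in several settings, as given above. Cln6, outside the list and named after its value was seen, had 0.12.

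For the breakdown of sphingolipids, 9 members were measured (Hexa, Gm2a, Glb1, Gla, Asah1, Smpd1, Arsa, Psap and Neu1). All 9 were above 0, against 48.7% of all named genes, with a median of 0.48. Over 1.5-fold were 4 (44.4%), against 12.4% of all named genes and 19.2% of the neighbors in signal, and the lowest of them, Neu1, was within background on both arrays. Myelin is rich in some sphingolipids, such as the sulfatide on which Arsa (0.41) acts. Its markers were higher in the ligation array as well, with the median of 1.35 given above, and their part in these values was not tested.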
